A study of Mus musculus with 9 samples.

Results

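The Frizzled receptors are encoded by the 10 genes Fzd1 to Fzd10, and they were chosen by symbol alone: all 10 were listed among the 18484 genes of each tumour. RNA was sequenced from 9 mammary tumours of BlgCre-NeuKI mice, 1 library per tumour. These mice carried, in every group including the sarcoma, the NeuKI allele on 1 chromosome, which places an activated rat Neu (the orthologue of Erbb2/HER2) in the endogenous Erbb2 locus behind a loxP-flanked stop cassette, and a Cre driven by the beta-lactoglobulin promoter, which acts mainly in luminal oestrogen receptor-negative mammary cells. Neu was therefore expressed from the endogenous Erbb2 promoter once Cre had acted, on a mixed FVB/C57Bl6 background and with no treatment. The ages of the mice were not used here.

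Of the 8 epithelial tumours, 5 were labelled as highly amplified at the Erbb2/Neu locus (high-amplified) and 3 as not amplified or amplified at a low level (not/low-amplified). Every high-amplified tumour was an adenocarcinoma of no special type, AC(NST). MS1155.3 and MS1218.2 among them arose in parous females, and MS1163.1, MS1163.2 and MS1213.1 in virgins. Parous females also gave the 3 not/low-amplified tumours, of which MS1166.1 was an AC(NST) while MS1349.1 and MS1210.1 were metaplastic adenosquamous carcinomas (ASQC). The remaining tumour, MS1156.1, was a not/low-amplified mammary sarcoma from a parous mouse, and as in the study it was kept out of the main comparisons. A single alternative fit included it. Amplification, parity and histotype therefore overlap and cannot be told apart in these groups. MS1163.1 and MS1163.2 carry the same mouse number. The study reports that the spleen of that mouse had also lost the stop cassette, with a low level of Neu amplification. MS1218.2 had the lowest estimated tumour content in the study. The amplification assays of the study conflicted for MS1218.2 and for MS1213.1, both labelled as high-amplified.

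Frizzled receptors are membrane proteins that cross the membrane repeatedly and hold Wnt ligands in a cysteine-rich domain outside the cell. With the co-receptors Lrp5 and Lrp6 they stabilise beta-catenin, which acts with TCF/LEF factors on genes such as Axin2. With Ror, Ryk or Vangl partners they feed the planar polarity and calcium branches, which do not pass through beta-catenin. The ligases Rnf43 and Znrf3 remove Frizzleds from the cell surface, and R-spondins with their Lgr receptors oppose that removal. In the mammary gland Wnt signalling maintains basal stem cells, and its forced activation in mice gives mammary tumours.

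Values are read counts per gene divided by 1 size factor per tumour (normalized counts). Levels of different genes are compared only after a further division by the exon length in kilobases. Depth ranged from 12501225 to 23912429 counted reads per tumour, at which 3 counts correspond to between 2.11 and 4.19 normalized counts. Erbb2, the amplified gene, lay between 5284 and 105019 normalized counts in the high-amplified tumours and between 1532 and 2783 in the not/low-amplified epithelial tumours, so these groups did not overlap. The luminal markers Krt8, Krt18, Epcam, Elf5 and Kit summed to between 33075 and 106328 normalized counts in the epithelial tumours and to 801 in the sarcoma. The fibroblast markers (6 genes, led by collagens) summed to between 28995 and 374435 in the epithelial tumours, highest in MS1218.2, and to 606110 in the sarcoma. Bulk RNA cannot tell fewer cells of a type from less RNA per cell.

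The genes lie on 7 chromosomes of GRCm38. Fzd1 (chr5:4753839-4758035, minus strand), Fzd9 (chr5:135248938-135251230, minus strand) and Fzd10 (chr5:128600844-128604093, plus strand) share chromosome 5, and Fzd5 (chr1:64730558-64737751, minus strand) and Fzd7 (chr1:59482424-59486955, plus strand) share chromosome 1. In the GENCODE M21 annotation 6 members, Fzd1, Fzd2, Fzd7, Fzd8, Fzd9 and Fzd10, consist of a single exon, and Fzd3 and Fzd6 have the most exon blocks, 8 and 9. Fzd3, Fzd5 and Fzd6 overlap other annotated genes, so their counts are uncertain where reads are shared with them.

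The sequence before the transcription start was available from RefSeq (GRCm38.p6) for 6 of the 10 members, as 300 bases from 250 before to 50 after the start. It is printed for the 3 members that differed most between tumours and had bases before every annotated start. Capitals mark a TCF/LEF core (CTTTGA or CTTTGT) or a GC box (GGGCGG), on either strand. Fzd1 (chr5:4758217-4758466, minus strand) held 2 TCF/LEF cores, Fzd5 (chr1:64737752-64738000, minus strand) held 9 GC boxes, some of them adjacent, and Fzd9 (chr5:135251231-135251297, minus strand) held neither in the 67 bases shown.
Fzd1: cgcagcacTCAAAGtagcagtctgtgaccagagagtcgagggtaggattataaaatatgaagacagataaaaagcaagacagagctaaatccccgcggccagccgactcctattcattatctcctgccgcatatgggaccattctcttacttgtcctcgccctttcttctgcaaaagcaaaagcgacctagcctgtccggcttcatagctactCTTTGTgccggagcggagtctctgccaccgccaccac
Fzd5: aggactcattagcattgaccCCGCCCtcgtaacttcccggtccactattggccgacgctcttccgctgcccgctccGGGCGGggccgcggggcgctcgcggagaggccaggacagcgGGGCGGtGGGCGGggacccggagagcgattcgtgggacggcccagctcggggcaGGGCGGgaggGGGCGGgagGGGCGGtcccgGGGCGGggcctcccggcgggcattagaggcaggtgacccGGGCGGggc
Fzd9: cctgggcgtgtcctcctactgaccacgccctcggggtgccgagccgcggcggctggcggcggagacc

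Over the full 300 bases, G and C made up 54.0% of the Fzd1 promoter, 75.7% of Fzd5, 78.0% of Fzd9 and 77.7% of Fzd10, against a median of 52.7% over all 32851 promoters of that length. The Fzd9 promoter held 53 CG dinucleotides and that of Fzd10 held 45, against a median of 7. Most of the Fzd9 window lies within the exon of its GENCODE model, and the 67 bases before that exon held 9 of its CG dinucleotides. Fzd1 held its 2 TCF/LEF cores and no GC box, Fzd5 held 10 GC boxes and no TCF/LEF core, and Fzd9 and Fzd10 held 1 GC box each and no TCF/LEF core. A TCF/LEF core occurred in 31.2% of all promoters and a GC box in 35.7%, and these matches are descriptions of the letters only. The Fzd10 window is not printed because it falls within the first exon of the GENCODE model.

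Per kilobase of exon, Fzd7 was the most abundant Frizzled of the epithelial tumours, with a median of 542 normalized counts per kilobase (range 378 to 678 over 8 tumours). It was followed by Fzd1 (median 309, range 215 to 682), Fzd6 (302, range 184 to 580) and Fzd5 (176, range 59.7 to 539). Fzd2 came next at 156 (range 72.2 to 228). These 5 overlapped with their neighbours in the order, and Fzd7 exceeded Fzd1 in 6 of 8 tumours whereas Fzd1 exceeded Fzd6 in 4 of 8. Between Fzd2 and the next member, Fzd4 (median 50.1, range 24.2 to 69.0), the ranges did not overlap. Fzd4, Fzd3 (32.1), Fzd8 (26.8), Fzd9 (15.01) and Fzd10 (3.79) followed in that order, again with overlapping neighbours. Fzd9 ranged from 0.519 to 176 and Fzd10 from 0.382 to 80.3, the widest spans of the family as a ratio of highest to lowest tumour.

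**Figure D1:**
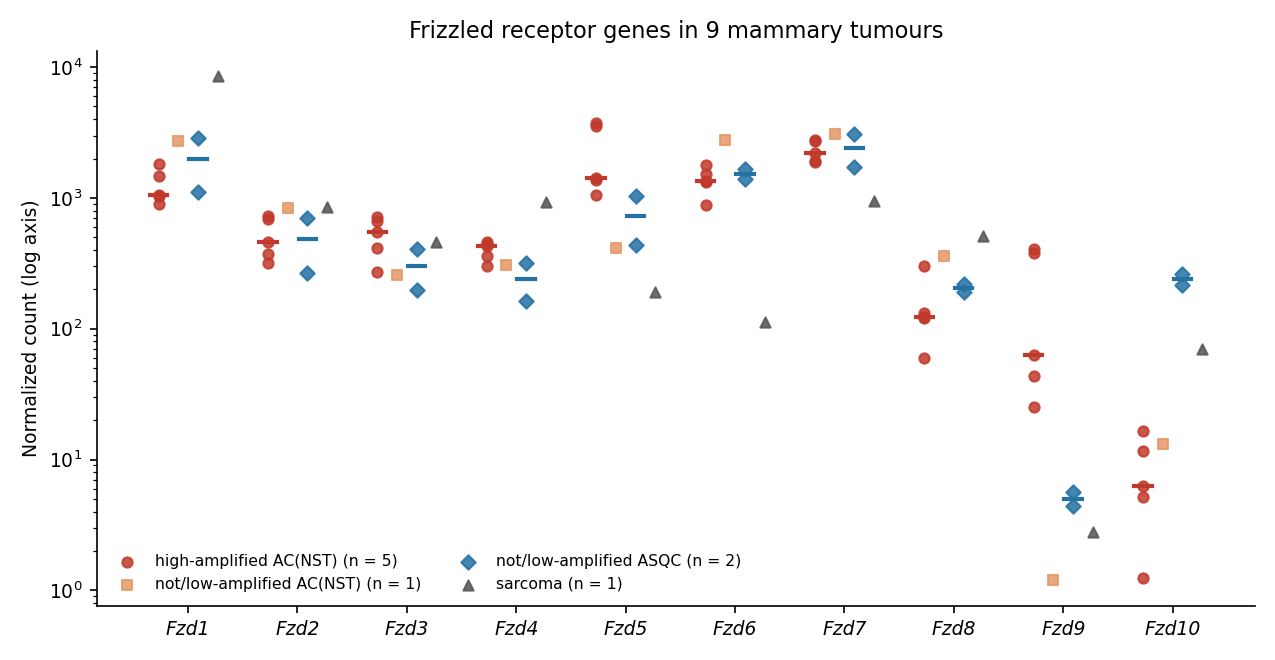
Normalized counts (log axis) of each Frizzled gene in 9 tumours; each point is 1 tumour, coloured by amplification and histotype, and short bars are group medians. Fzd9 spans 1.19 to 404 and Fzd10 1.24 to 261 over the epithelial tumours, whereas Fzd7 stays between 1711 and 3071.

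Fzd7, a receptor used in both the beta-catenin and the polarity branch, was the steadiest member: its highest epithelial tumour was 1.80 times its lowest. It led the family in 4 of 8 epithelial tumours, Fzd1 led in 2 (MS1218.2 and MS1210.1) and Fzd5 led in the 2 tumours of mouse MS1163. Fzd7 held between 22.8% and 36.5% of the summed level per kilobase in these tumours. Fzd5 held 27.3% in MS1163.1 and 27.5% in MS1163.2, and between 2.58% and 12.6% in the other epithelial tumours. Fzd9 held 8.80% and 8.99% in the tumours of mouse MS1163 and at most 1.78% elsewhere, and Fzd10 held 4.96% in MS1349.1, 3.80% in MS1210.1 and no more than 0.332% in AC(NST). The sarcoma stood apart, with 72.4% of its summed level in Fzd1.

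**Figure D2:**
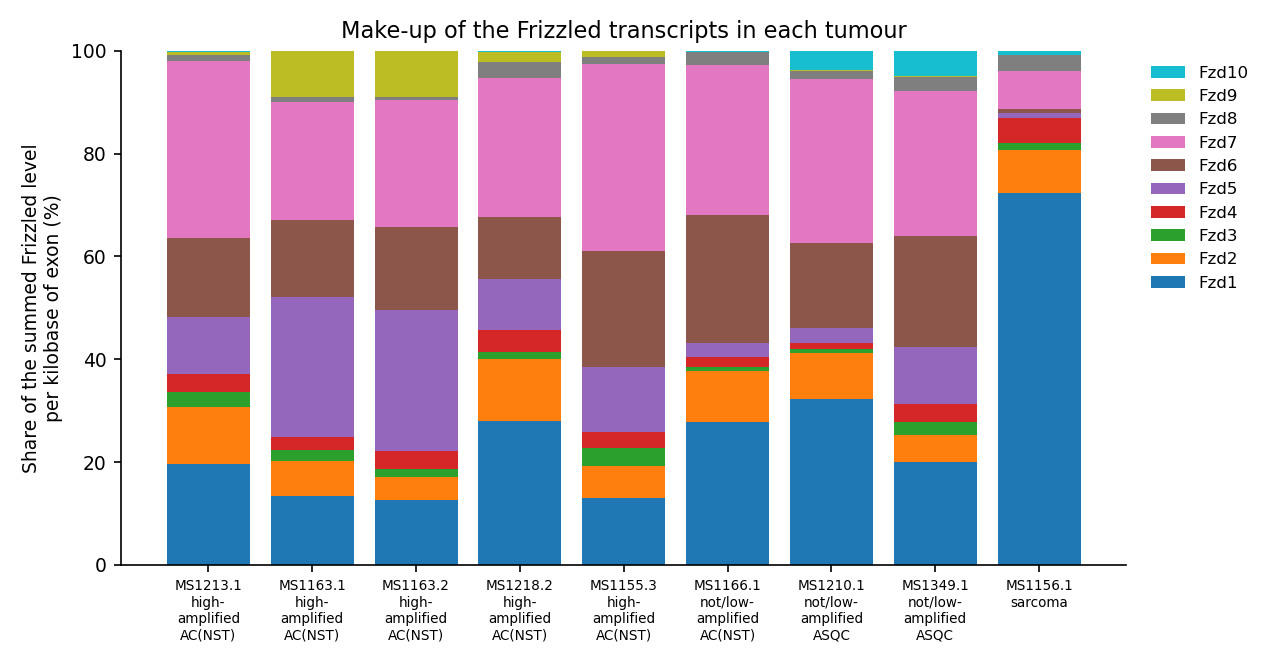
Share of each Frizzled gene (%) in the summed normalized count per kilobase of exon of the 10 genes, 1 bar per tumour. Fzd5 fills 27.3% and 27.5% of the bars of mouse MS1163, Fzd10 is visible in both ASQC tumours, and Fzd1 fills 72.4% of the sarcoma.

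The comparison of high-amplified with not/low-amplified tumours follows the amplification label, with which parity and histotype overlap. No Frizzled member passed the threshold of edgeR's quasi-likelihood test (adjusted p under 0.05 and more than a 2-fold change), while 0.435% of the 14007 genes tested were called higher and 0.485% lower in high-amplified tumours. Of the 10 members 4, Fzd1, Fzd5, Fzd9 and Fzd10, had an unadjusted p under 0.05, as did 22.8% of all genes tested. DESeq2 called Fzd5 and Fzd9 higher and Fzd10 lower, against backgrounds of 5% of genes called higher and 3.82% called lower by that tool, and limma called none. Without MS1218.2, edgeR called the same 3 members, with adjusted p of 0.0485 for Fzd5, 0.0347 for Fzd9 and 0.0348 for Fzd10. In that fit it called 751 of 13816 genes higher and 504 lower. Without MS1166.1, which leaves only ASQC tumours in the not/low-amplified group, it called Fzd10 (adjusted p = 0.0287). There it called 16 of 13938 genes higher and 68 lower. Without MS1213.1 it called no member.

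Fzd9, a receptor studied mainly in neural and bone progenitors, was the member with the largest difference. From the highest to the lowest high-amplified tumour it measured 404 normalized counts (MS1163.2), 377 (MS1163.1), 62.9 (MS1218.2), 43.8 (MS1155.3) and 25.04 (MS1213.1). In the not/low-amplified tumours it measured 1.19 in MS1166.1 (a single read, counting interval 0.0301 to 6.63), 5.63 in MS1210.1 and 4.38 in MS1349.1. Each of the 5 high-amplified tumours was above each of the 3 others, by 4.45 times at the closest, and the level was far higher in both tumours of 1 mouse. Read counts were 8, 6 and 1 in MS1210.1, MS1349.1 and MS1166.1 and at least 26 in the high-amplified tumours. Fzd9 thus passed the filter (10 counts in 3 tumours) only through the group where it was high. The separation is therefore no independent support for a difference. Group means were 182 ± 190.4 (SD, n = 5) and 3.73 ± 2.29 (SD, n = 3). The log2 fold change was 5.51 ± 1.25 (SE), with an adjusted p of 0.0662 in edgeR's quasi-likelihood test and of 1.86e-06 in DESeq2. Without both tumours of mouse MS1163 it was 3.52 ± 0.81, adjusted p = 0.148 with edgeR. Among the AC(NST) tumours alone, where the only not/low-amplified tumour is MS1166.1, it was 7.07 ± 2.54 (adjusted p = 0.200 with edgeR).

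Fzd5, which signals to beta-catenin and is expressed in many epithelia, was likewise highest in the tumours of mouse MS1163. Among the high-amplified tumours it measured 3725 normalized counts (MS1163.2), 3525 (MS1163.1), 1429.8 (MS1155.3), 1371 (MS1213.1) and 1057 (MS1218.2). In the not/low-amplified tumours it measured 413 in MS1166.1, 433 in MS1210.1 and 1032 in MS1349.1. The groups did not overlap, but only barely: MS1218.2 was 1.02 times MS1349.1, and the tumours of mouse MS1163 were again the highest. The log2 fold change was 1.83 ± 0.55 (adjusted p = 0.107 with edgeR's quasi-likelihood test and 0.0140 with DESeq2). It came to 1.08 ± 0.43 without both tumours of mouse MS1163 and to 1.04 ± 0.51 among parous mice alone, adjusted p = 0.262 and 0.490 with edgeR.

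Fzd5 and Fzd9 were the 2 members in which all high-amplified tumours lay above all not/low-amplified ones. That pattern held for 7.55% of the genes tested, and the opposite one for 8.04% of genes and for no member. Fzd9 entered the tested genes only through its high-amplified tumours, so its place in that share is no support for its difference. Across the 8 tumours the log2 levels of Fzd5 and Fzd9 had a Pearson r of 0.92, the highest of the 45 pairs of members. Fzd1 ran against Fzd5 (r = -0.84) and with Fzd2 (r = 0.81). These correlations describe 8 points, 2 of them from 1 mouse, and were not tested.

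**Figure D3:**
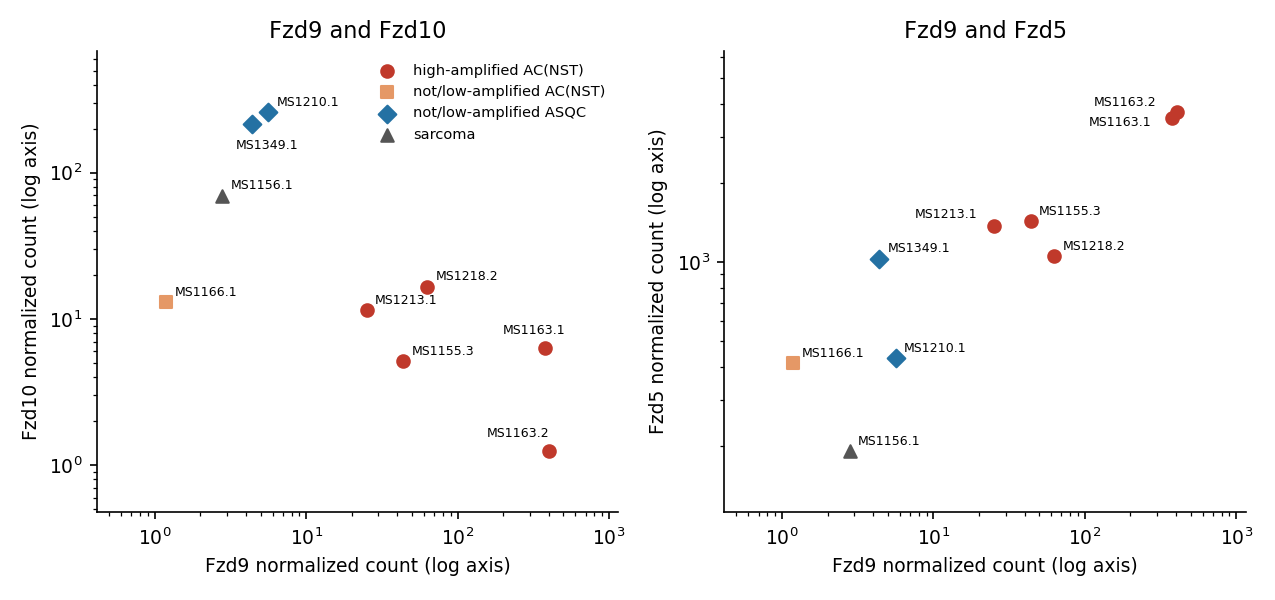
Fzd9 (x axis) against Fzd10 (left) and Fzd5 (right), normalized counts on log axes, 1 labelled point per tumour. High-amplified tumours lie at Fzd9 levels of 25.04 and above, the ASQC tumours lie at Fzd10 levels of 216 and 261, and MS1166.1 is low in both, at 1.19 and 13.1.

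Fzd10, a receptor linked to beta-catenin signalling that is scarce in most adult tissues, was the member with the next largest difference, and its high values were those of the ASQC tumours. In the high-amplified tumours it measured 16.7 normalized counts (MS1218.2), 11.6 (MS1213.1), 6.30 (MS1163.1), 5.15 (MS1155.3) and 1.24 (MS1163.2, a single read, counting interval 0.0315 to 6.92). In the others it measured 261 (MS1210.1), 216 (MS1349.1) and 13.1 (MS1166.1). MS1166.1, although not/low-amplified, thus lay inside the range of the high-amplified tumours, and both ASQC tumours lay far above it. For high-amplified against not/low-amplified tumours the log2 fold change was -4.27 ± 0.94 (adjusted p = 0.0641 with edgeR and 0.000124 with DESeq2), and among AC(NST) tumours alone it was -0.66 ± 1.17 (adjusted p = 0.772 with edgeR).

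The comparison of ASQC with AC(NST) tumours follows the histotype label, and both ASQC tumours were not/low-amplified and from parous mice. Fzd10 was higher in ASQC, with a mean of 238 ± 32.1 normalized counts (SD, n = 2), than in AC(NST), with a mean of 9.0 ± 5.73 (SD, n = 6), and the ratio of the means was 26.5. The lower ASQC tumour was 12.9 times the highest AC(NST). The log2 fold change was 4.70 ± 0.69 (SE), with an adjusted p of 0.0303 in edgeR's quasi-likelihood test and of 4.79e-09 in DESeq2. It was the only member called by edgeR, which called 0.221% of genes higher and 0.0143% lower in ASQC. All ASQC above all AC(NST) held for 5.3% of genes and for Fzd10 alone among the members. The opposite held for 4.98% of genes and for no member.

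The size of the Fzd10 difference moved little, between 4.22 and 4.97 on the log2 scale over 19 alternative fits, but its adjusted p moved between 4.79e-09 and 0.392, and it was under 0.05 in 8 of the 19. With amplification as a covariate the log2 fold change was 4.22 ± 1.35 (adjusted p = 0.320), and among parous mice alone it was 4.31 ± 0.73 (adjusted p = 0.392), both with edgeR. Without MS1218.2 it was 4.97, adjusted p = 0.0602 with edgeR. Leaving out MS1213.1, MS1163.1 or MS1155.3, or either ASQC tumour, MS1210.1 or MS1349.1, also ended the call, with adjusted p between 0.0732 and 0.247 in edgeR. Basal markers (5 of 5 tested, none called) summed to 10702 (MS1349.1) and 57515 (MS1210.1) in ASQC and to between 1485 and 14081 in AC(NST). They did not move together. In ASQC the log2 fold changes were 4.12 for Krt14, 2.96 for Krt5 and 2.70 for Trp63, but -0.61 for Acta2 and -0.75 for Mylk. Krt14 was the largest part of the sum in ASQC, with a mean of 28415 normalized counts. Squamous markers (4 genes, 1 of them past the filter, not called) summed to 102 and 335 in the ASQC tumours and to between 9.26 and 23.2 in AC(NST). Their part in the Fzd10 difference was not tested.

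Fzd9 was lower in ASQC by -4.88 ± 1.94 on the log2 scale (adjusted p = 0.512 with edgeR and 0.0115 with DESeq2), but MS1166.1, an AC(NST), was lower still, so the histotypes overlapped. DESeq2 called 1.67% of genes higher and 1.21% lower in ASQC, Fzd10 and Fzd9 among them. With amplification as a covariate the Fzd9 difference became 2.01 ± 2.38 (adjusted p = 0.830 with edgeR). The other 8 members differed between histotypes by between -1.38 (Fzd5) and 0.42 (Fzd1) on the log2 scale, with edgeR adjusted p of 0.647 or more.

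**Figure D4:**
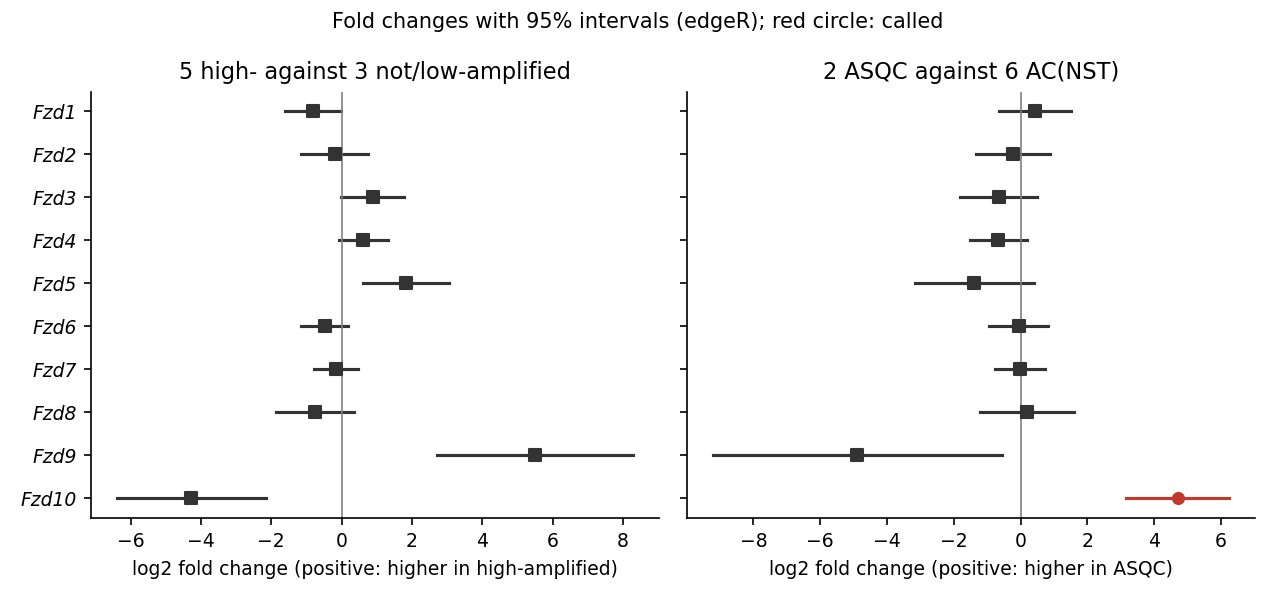
Log2 fold changes of the 10 Frizzled genes with 95% intervals from edgeR, for high-amplified (n = 5) against not/low-amplified (n = 3) tumours on the left and ASQC (n = 2) against AC(NST) (n = 6) on the right. The only called value, marked by a red circle, is that of Fzd10 in ASQC, 4.70; the interval of Fzd9 on the left runs from 2.72 to 8.30.

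Fzd1, a receptor that can act through beta-catenin, measured 1813 normalized counts (MS1218.2), 1473 (MS1213.1), 1048 (MS1163.1), 1036 (MS1163.2) and 900.4 (MS1155.3) in the high-amplified tumours. It measured 2700.2 in MS1166.1, 2863 in MS1210.1 and 1119 in MS1349.1. MS1166.1 and MS1210.1 lay above all high-amplified tumours, and MS1349.1 lay among them. The log2 fold change was -0.80 ± 0.36 (unadjusted p = 0.0488, adjusted p = 0.216, edgeR).

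Fzd6 and Fzd3, the members best known from planar polarity of hair and neurons, pointed in opposite directions. Fzd6 was highest in MS1166.1, at 2793 normalized counts, and ranged from 888 to 1792 in the high-amplified tumours (log2 fold change -0.48 ± 0.30, adjusted p = 0.364 with edgeR). Fzd3 ranged from 271 to 717 in the high-amplified tumours and from 198 to 408 in the others (log2 fold change 0.88 ± 0.40, adjusted p = 0.222 with edgeR). Neither separated the groups.

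Fzd4, the receptor for norrin in retinal vessels, lay between 303 and 464 normalized counts in the high-amplified tumours and between 162 and 317 in the others (log2 fold change 0.62 ± 0.31, adjusted p = 0.266 with edgeR). Fzd8 lay between 59.7 and 301 and between 189 and 357 (log2 fold change -0.77 ± 0.49, adjusted p = 0.375), and its highest high-amplified tumour was MS1218.2. Fzd2 differed by -0.20 with a 95% interval of -1.14 to 0.75, and Fzd7 by -0.16 with an interval of -0.78 to 0.46, so that a 2-fold difference in either direction lay outside the interval for Fzd7 and a fall of that size lay inside it for Fzd2.

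In the sarcoma 3 members lay above all 8 epithelial tumours and at least 2-fold above their median, against 15.6% of genes, and 3 lay below in the same sense, against 15.2%. With 1 sarcoma there is no test. Fzd1 measured 8557 normalized counts (counting interval 8344 to 8774), 6.60 times the epithelial median and 2.99 times the highest epithelial tumour. Fzd4 measured 937 and Fzd8 513, 2.78 and 3.21 times their epithelial medians. Fzd6, Fzd5 and Fzd7 were the low ones. Fzd6 measured 112, the epithelial median being 13.0 times as high, Fzd5 measured 191 (6.35 times) and Fzd7 944 (2.60 times). Fzd2 (858), Fzd3 (462), Fzd9 (2.79, from 2 reads, counting interval 0.338 to 10.1) and Fzd10 (69.8) fell inside the epithelial range or less than 2-fold from the median. The low luminal and high fibroblast marker sums given above go with these values. The neural and Schwann cell markers (4 genes) summed to 40834 in the sarcoma against at most 7998 elsewhere, the skeletal muscle markers (3 genes) to 11318 against at most 2267, and the endothelial markers (5 genes) to 2833, inside the epithelial range of 1812 to 11436. The part of these cell types in the Frizzled levels of the sarcoma was not tested.

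The same neural and Schwann cell list ranged from 2489 to 7998 in the high-amplified and from 688 to 2869 in the not/low-amplified epithelial tumours, with 1 of its 4 genes, S100b, called higher in the high-amplified tumours (log2 fold change 5.63 ± 1.05, adjusted p = 0.0433 with edgeR). This call was lost without any single tumour other than MS1218.2 (edgeR adjusted p between 0.0581 and 0.108). The part of this list in the Fzd9 difference was not tested.

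The other genes of the pathway were taken from lists of 79 genes by role, of which 63 passed the filter on low counts. Between high- and not/low-amplified tumours edgeR called 1 of the 63, Axin2, and between histotypes 3, Axin2, Wif1 and Apcdd1, all of them feedback targets of the pathway. Axin2, which limits beta-catenin and is induced by it, measured between 43.0 and 158 normalized counts in the high-amplified tumours, 328 in MS1166.1, 4341 in MS1210.1 and 5250.1 in MS1349.1. It was lower in the high-amplified tumours by -4.98 ± 0.78 on the log2 scale (adjusted p = 0.0296, edgeR) and higher in ASQC by 5.10 ± 0.58 (adjusted p = 0.0154, edgeR). Among AC(NST) tumours alone its amplification difference was -1.67 (adjusted p = 0.243, edgeR). The amplification call was lost on leaving out any single tumour other than MS1218.2 or MS1166.1 (adjusted p between 0.0593 and 0.0808), and the histotype call on leaving out MS1218.2, MS1210.1 or MS1349.1 (adjusted p between 0.0514 and 0.0891). The ASQC tumours that were high in Fzd10 were thus the tumours high in Axin2, and MS1166.1 lay far below them in both. Axin2 in MS1166.1 was nevertheless above every high-amplified tumour, whereas its Fzd10 lay within their range.

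Wif1, a secreted Wnt antagonist, measured 1507 and 931 normalized counts in the ASQC tumours and at most 21.1 in AC(NST) (log2 fold change 7.26 ± 0.93, adjusted p = 0.0211, edgeR). Apcdd1, a membrane-bound antagonist, measured 959 and 3312 against at most 301 (4.28 ± 0.66, adjusted p = 0.0410, edgeR). The Wif1 call was lost without MS1163.1, MS1218.2, MS1210.1 or MS1349.1 (edgeR adjusted p between 0.0503 and 0.116), and that of Apcdd1 without any single tumour other than MS1218.2 or MS1166.1 (between 0.0741 and 0.466). The median log2 fold change of the 5 tested feedback targets was 4.28 in ASQC, beside -0.08 over all genes, and -3.60 in high-amplified tumours, beside 0.02.

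Among the proteins that set the amount of Frizzled at the membrane, 0 of 7 tested genes were called in either comparison by edgeR, with 3 (amplification) and 4 (histotype) at an unadjusted p under 0.05. Over all genes tested that share was 22.8% for amplification and 8.72% for histotype, and the counts of the lists below stand beside the same shares. The median log2 fold change of the 7 genes was -2.07 in high-amplified tumours (the value of Rspo1) and 1.49 in ASQC (that of Znrf3). The list holds both ligases that remove Frizzleds and proteins that oppose removal. Its median therefore gives no direction for Frizzled at the membrane. Genes without overlap are named here and in the lists below. Over all genes tested, 7.55% lay wholly above and 8.04% wholly below in high-amplified tumours, and 5.3% and 4.98% in ASQC. The R-spondin receptors without overlap were Lgr6 (-2.74, adjusted p = 0.104) and Lgr4 (-1.37, adjusted p = 0.131) in the high-amplified tumours, and Lgr5 (3.25, adjusted p = 0.0932), Lgr6 (2.50, adjusted p = 0.485) and Lgr4 (1.65, adjusted p = 0.247) in ASQC, all with edgeR. DESeq2 called Lgr5 and Lgr6 in the first comparison (adjusted p = 0.00804 and 0.00919) and Lgr5 and Lgr4 in the second (adjusted p = 0.000226 and 0.0437).

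Of the 10 receptor partners tested none was called by edgeR, with 3 at an unadjusted p under 0.05 in each comparison. In high-amplified tumours Ror1, a Wnt5a receptor, differed by -1.84 (adjusted p = 0.0782), Reck, a co-receptor for Wnt7 ligands, by 1.67 (adjusted p = 0.0922) and the co-receptor Lrp6 by 1.09 (adjusted p = 0.0971), each with no overlap. Ryk also had no overlap there, with a small difference of -0.44 (adjusted p = 0.241 with edgeR). In ASQC the non-overlapping partners were Ror1 (1.71, adjusted p = 0.426) and Lrp6 (-1.09, adjusted p = 0.515). DESeq2 called Ror1, Reck and Lrp6 in the amplification comparison, at adjusted p = 0.00528, 0.00887 and 0.00770, and none of the 3 between histotypes.

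Of the 13 ligands tested none was called by edgeR, with 5 (amplification) and 3 (histotype) at an unadjusted p under 0.05. Wnt2 differed by 3.31 (adjusted p = 0.0867) and Ndp, which encodes the Fzd4 ligand norrin, by -2.97 (adjusted p = 0.10) in high-amplified tumours, whereas in ASQC Wnt10a differed by 5.10 (adjusted p = 0.178) and Wnt6 by 4.16 (adjusted p = 0.316). In the lower group of each comparison their means were 5.54, 3.88, 4.37 and 3.93 normalized counts in that order, near the level of 3 counts. The high-amplified values of Ndp (SD 1.95) were too low to reach the filter on low counts. Ndp thus passed it only through the not/low-amplified tumours, so its separation is no independent support for a difference. Its not/low-amplified mean was 32.4, against 9.29 in the ASQC tumours alone, so most of that mean came from MS1166.1. The more abundant Wnt5b and Wnt5a each separated the groups of 1 comparison and overlapped in the other. Wnt5b differed by -2.39 in high-amplified tumours (means 527 and 2834, adjusted p = 0.127 with edgeR). Wnt5a differed by 2.62 in ASQC (means 4159 and 675, adjusted p = 0.413 with edgeR). Of the 5 tested relatives that share the Frizzled cysteine-rich domain none was called by edgeR, with 2 at an unadjusted p under 0.05 in each comparison. The secreted antagonist Sfrp4 differed by 3.59 (adjusted p = 0.0670) in high-amplified tumours, and Sfrp2 by 2.42 (adjusted p = 0.256) in ASQC. Of Wnt2, Ndp, Wnt10a, Wnt6, Sfrp4 and Sfrp2, DESeq2 called Wnt2, Ndp, Sfrp4 and Wnt10a in the first comparison and Wnt10a, Sfrp2 and Sfrp4 in the second.

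The 14 transducers and 9 planar polarity partners held no called gene in edgeR. At an unadjusted p under 0.05 stood 1 transducer in each comparison and 3 polarity partners for amplification and 0 for histotype. The TCF/LEF factor Tcf7 differed by -2.09 (adjusted p = 0.0826) in high-amplified tumours and by 2.27 (adjusted p = 0.206) in ASQC. Dvl2, which relays the signal from Frizzled, differed by -0.56 in ASQC (adjusted p = 0.646). Prickle2 differed by 1.55 (adjusted p = 0.224) and Prickle1 by -1.02 (adjusted p = 0.0868) in high-amplified tumours, and no polarity partner separated the histotypes. DESeq2 called Tcf7 in both comparisons and Prickle1 in the first. The comparisons share the same 8 tumours, and both ASQC tumours are not/low-amplified, so their values are not independent.

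**Figure D5:**
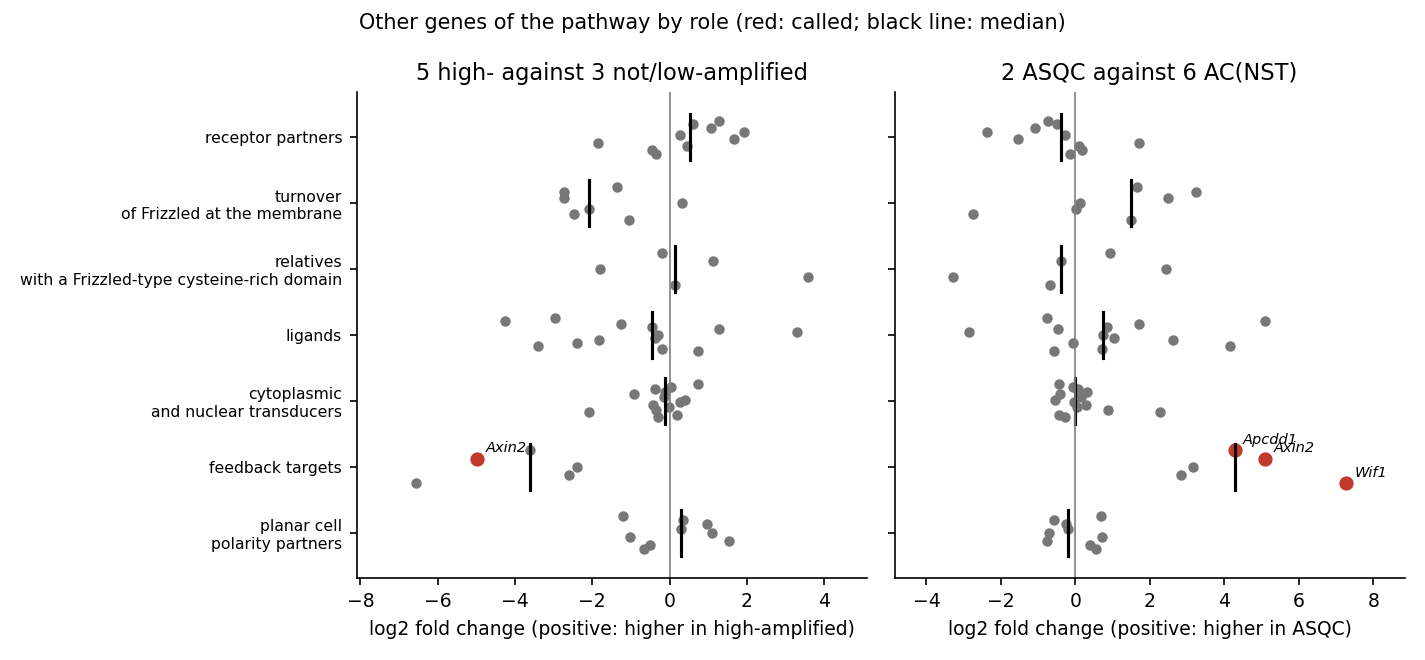
Log2 fold changes of 63 pathway genes grouped by role, for amplification (left) and histotype (right); each point is 1 gene, red points are called by edgeR and black lines are list medians. Axin2 is called on both sides (-4.98 and 5.10), Wif1 (7.26) and Apcdd1 (4.28) on the right, and transducers cluster about 0.

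For the members with the smallest p in each direction of the amplification comparison, the genes with the most similar pattern were sought among 14006 genes by the Pearson r of log2(normalized count + 1) over the 8 epithelial tumours. For Fzd9 they were Shc4 (r = 0.98), Fry, Ccdc159, Sntb2 and Tram2 (each 0.97). For Fzd10 they were Sp6 (0.98), Rmdn3 (0.97), AI661453 (0.97), Atp6ap2 (0.96) and Chp1 (0.96). With 8 points and this many genes, such values are a description only.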

How the data were processed

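RNA from 9 tumours was depleted of ribosomal RNA and sequenced in pairs from directional libraries. According to the methods of the study, the authors aligned reads with STAR to mouse build 38, allowing 3 mismatches and keeping unique positions, and counted them with HTSeq-count; the strand option is not given in the sources used here. The authors deposited raw counts per gene for all 9 tumours and, for the 8 epithelial tumours, a signal equal to those counts divided by 1 size factor each (0.776 to 1.42), as DESeq2 computes it. The sarcoma was scaled here by the median ratio to the geometric means of the 8 tumours (factor 0.717). Depths are given above; counting intervals are exact Poisson 95% intervals and cover counting error only.

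Positions and exon lengths came from GENCODE M21 and promoters from RefSeq. Groups came from the labels of amplification and diagnosis. The test was edgeR 4.0.16 (quasi-likelihood, TMM, R 4.3.3) on the raw counts of genes that reached 10 counts in 3 or more of the 8 tumours, with Benjamini-Hochberg adjustment over all 14007 genes, called at adjusted p under 0.05 and a log2 fold change beyond 1; it was checked on simulated counts. DESeq2 1.42.0, limma 3.58.1 (pseudocount 1), other scalings and filters, covariates, subsets and each tumour left out in turn were alternatives. Replicates are separate tumours, so p-values measure the spread between tumours, but MS1163.1 and MS1163.2 came from 1 mouse and were fitted as independent. With their counts summed, edgeR's adjusted p by amplification was 0.108 for Fzd9 and 0.166 for Fzd5. Named pathway genes were those called and otherwise, per list, up to 2 with the largest change and no overlap between groups. Lrp6, Ryk and Wnt5b by amplification and Lgr4 and Wnt5a by histotype were added after their values were seen. So were the DESeq2 calls of Lgr5, Wnt10a and Sfrp4 in their other comparison. The members, lists and tests were chosen with earlier results of these data known. Python 3.11.15, numpy 2.4.6, pandas 2.3.3, scipy 1.17.1 and matplotlib 3.10.9 were used.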

Additional observations from a re-analysis of the deposited data

How the results depend on the processing

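These results rest on 8 tumours with overlapping labels, and the counts of called genes moved most. In the comparison of high-amplified with not/low-amplified tumours, 61 genes were called higher and 68 lower. DESeq2 called 902 and 689, limma 118 higher, no filter on low counts 139 lower, the summed tumours of 1 mouse 18 and 13, AC(NST) tumours alone 7 and 33, and the sarcoma set with the not/low-amplified tumours 3 and 0. Parity as a covariate, parous tumours alone and, added after the data were seen, leaving out both tumours of mouse MS1163 each gave 0 and 0. Leaving out 1 tumour gave between 0 and 751 higher and between 1 and 504 lower, the largest counts without MS1218.2. DESeq2 called 3 Frizzled members, leaving out 1 tumour gave between 0 and 3 (3 without MS1218.2, 1 without MS1166.1), and the other settings gave 0.

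Between histotypes, 31 genes were called higher and 2 lower. No filter gave 167 and 4, a filter of 10 counts in 2 tumours 146 higher, DESeq2 301 and 217, limma 12 higher, the summed mouse 17 and 1, ASQC against high-amplified AC(NST) alone 68 and 16, parity as a covariate 2 and 0, parous tumours alone 1 and 0, amplification as a covariate 0 and 0, and no tumours of mouse MS1163 1 and 0. Leaving out 1 tumour gave between 4 and 68 higher and between 0 and 16 lower. DESeq2 called 2 members. Limma, either covariate, parous tumours alone and no tumours of mouse MS1163 called 0, and leaving out 1 tumour called between 0 and 1.

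Directions held in all alternatives for Fzd1, Fzd3, Fzd5, Fzd6, Fzd8, Fzd9 and Fzd10 by amplification and for Fzd4 and Fzd10 by histotype. By amplification, Fzd2 became 0.046 without mouse MS1163, and with the sarcoma included Fzd4 became -0.085, Fzd7 0.090, Reck -1.02 and S100b -1.31. By histotype, amplification as a covariate turned Fzd1 to -0.40, Fzd3 to 0.29, Fzd5 to 0.88, Fzd8 to -0.75, Fzd9 to 2.01 and Sfrp4 to 0.24. Fzd8 also became -0.32 with parity as a covariate, -0.35 in parous tumours alone and -0.16 without mouse MS1163. Fzd6 became 0.0072 with limma and 0.15 against high-amplified AC(NST) alone, where Fzd7 became 0.048. With 1 tumour left out, Fzd2 lay between -0.55 and 0.10 by amplification. By histotype Fzd1 lay between -0.46 and 0.94, Fzd2 between -1.14 and 0.30, Fzd6 between -0.25 and 0.15, Fzd7 between -0.54 and 0.34 and Fzd8 between -0.0048 and 0.47. Without division by length the median share of Fzd3 was 4.89% in place of 1.98%. Fzd9 could not be tested in parous tumours alone, where it was under the filter. The Axin2 call by amplification held in 8 of 20 alternatives and those of Axin2, Wif1 and Apcdd1 by histotype in 12, 11 and 6 of 19, where ASQC against high-amplified AC(NST) alone and leaving out MS1166.1 are the same fit and count once. The cause of these changes was not tested, except that subsets hold fewer tumours. The sarcoma counts of 3 above and 3 below were the same under both other scalings.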
